A study of Mus musculus with 18 samples.

Results

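Death receptors are cell-surface proteins of the tumour necrosis factor (TNF) receptor family that can pass a death signal into the cell. The genes described here are 4 receptor genes (Fas, Tnfrsf10b, Tnfrsf1a and Tnfrsf1b), 1 ligand gene (Tnfsf10) and 4 genes of the signalling machinery under the receptors (Fadd, Casp8, Ripk1 and Cflar). They were chosen by symbol, as the rows of the deposited table with these 9 names, out of 21959 genes. All 9 passed the filter on low counts, which kept 13375 genes, and each was followed through 6 groups of 3 libraries.

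A ligand such as FasL, TRAIL or TNF binds its receptor on the target cell. Fas and the TRAIL receptor recruit the adaptor FADD, which brings in caspase-8, the protease that starts apoptosis, while TNF receptor 1 first gathers a complex around the kinase RIPK1 that sends survival signals. The caspase-8 relative c-FLIP, encoded by Cflar, holds caspase-8 in check. Natural killer (NK) cells carry FasL and TRAIL, so the receptors on a target cell are one route by which NK cells can kill it.

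RNA was sequenced from MOVAS, an established line of mouse aortic smooth muscle cells. Blank cells were untreated, Dox cells were given doxorubicin, a DNA-damaging anthracycline, and H2O2 cells were given hydrogen peroxide, an oxidant; the design text names both agents as inducers of senescence. Isoliensinine, a plant alkaloid, is the only agent in the labels of the B_I, H_I and D_I groups. Their titles mirror those of Blank, H2O2 and Dox, and each was taken here as the matching group with isoliensinine added. The question, by the series title, is NK cell clearance of senescent smooth muscle cells under isoliensinine. Every group is the same cell line, the labels give no dose or time, and the design text speaks of biological replicates without saying whether they were separate cultures. P-values therefore measure the spread between these libraries.

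Promoter sequence was at hand for 8 of the 9 genes, all but Tnfrsf10b. The 250 bases before the annotated start are shown for Fas and for both TNF receptors. Of these genes, edgeR called only Tnfrsf1a in Dox against Blank, as lower (values below). They were read from RefSeq on build GRCm38.p6, 5′ to 3′ along the gene, at chr19:34290409-34290658 (plus strand) for Fas, chr6:125349473-125349722 (plus strand) for Tnfrsf1a and chr4:145246871-145247120 (minus strand) for Tnfrsf1b. Capitals mark matches to 3 kinds of short motif in Fas, 1 in Tnfrsf1a and 3 in Tnfrsf1b, named after the sequences.
Fas: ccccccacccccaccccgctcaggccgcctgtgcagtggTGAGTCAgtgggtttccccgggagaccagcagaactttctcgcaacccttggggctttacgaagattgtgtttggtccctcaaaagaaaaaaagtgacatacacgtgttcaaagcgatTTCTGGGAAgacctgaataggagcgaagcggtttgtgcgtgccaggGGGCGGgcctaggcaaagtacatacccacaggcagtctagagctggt
Tnfrsf1a: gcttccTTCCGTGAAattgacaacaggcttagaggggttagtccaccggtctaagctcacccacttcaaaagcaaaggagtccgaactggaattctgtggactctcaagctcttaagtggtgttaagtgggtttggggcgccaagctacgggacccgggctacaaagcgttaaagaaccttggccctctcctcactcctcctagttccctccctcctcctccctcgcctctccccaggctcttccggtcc
Tnfrsf1b: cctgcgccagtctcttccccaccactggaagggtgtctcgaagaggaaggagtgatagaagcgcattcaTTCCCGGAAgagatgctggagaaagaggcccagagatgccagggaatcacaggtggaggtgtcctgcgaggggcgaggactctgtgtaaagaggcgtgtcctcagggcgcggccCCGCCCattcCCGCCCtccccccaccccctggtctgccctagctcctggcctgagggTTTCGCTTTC

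In the Fas window the capitals are, in order, an AP-1 match (TGAGTCA), a GAS match (TTCTGGGAA) and a GC box (GGGCGG). Tnfrsf1a held a single GAS match (TTCCGTGAA). Tnfrsf1b held a GAS match (TTCCCGGAA), 2 GC boxes on the opposite strand (CCGCCC) and an ISRE match (TTTCGCTTTC) that ends at the last base before the start. The motifs searched on both strands were GAS (TTCNNNGAA), AP-1 (TGANTCA) and the GC box (GGGCGG), with the ISRE, the p53 half-site and the kappaB motif by name, and no matches overlapped. Over the 9 windows of the 8 genes, 4 held a GAS match against 7.02% of all 32851 windows in the table, 1 an ISRE (2.98% of all), 1 an AP-1 match (6.75%) and 5 a GC box (32.7%). Neither a p53 half-site (7.13% of all windows) nor a kappaB motif (7.25%) was found in the 9. A match is a string of letters in this window and was not measured as a binding site.

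Library totals ran from 12859609 to 23284077 counts, with the 3 Dox libraries the deepest (20140802 or more) and no other library above 17955971. Libraries Blank 4 and B_I 3 stood apart from the rest on the first principal component (-69.71 and -61.32). In these 2 libraries the summed level of 10 smooth muscle markers was 4810 and 4131 CPM (counts scaled to library size, with edgeR's TMM factors), against 1042 to 3241 in the other 16. Of the defining markers Acta2 was abundant, but Tagln averaged 0.116 FPKM in Blank and Myocd was listed at 0 in 6 of 18 libraries. Cdkn1a, the cell cycle inhibitor p21 used as a check of the inducers, rose by 2.20 (log2) in Dox against Blank and by 1.16 in H2O2 against Blank (adjusted p = 4.36e-10 and 2.61e-05, edgeR quasi-likelihood test with Benjamini-Hochberg adjustment over all genes tested). In bulk RNA, fewer cells of a type and less RNA per cell cannot be told apart.

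Per gene length, the receptors for TNF were by far the best represented members. The deposited FPKM values (counts scaled by gene length and library total) had a median over the 18 libraries of 102 for Tnfrsf1a, which encodes TNF receptor 1, the TNF receptor with a death domain. Tnfrsf1b, encoding TNF receptor 2, which has no death domain, followed at a median of 25.9 FPKM. Fadd stood at 9.63 FPKM, and Fas (3.99), Casp8 (3.42), Tnfrsf10b (3.28) and Ripk1 (2.74) lay close together and overlapped between libraries. Cflar had a median of 0.692 FPKM and Tnfsf10 of 0.136 FPKM, the lowest of the 9.

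**Figure D1:**
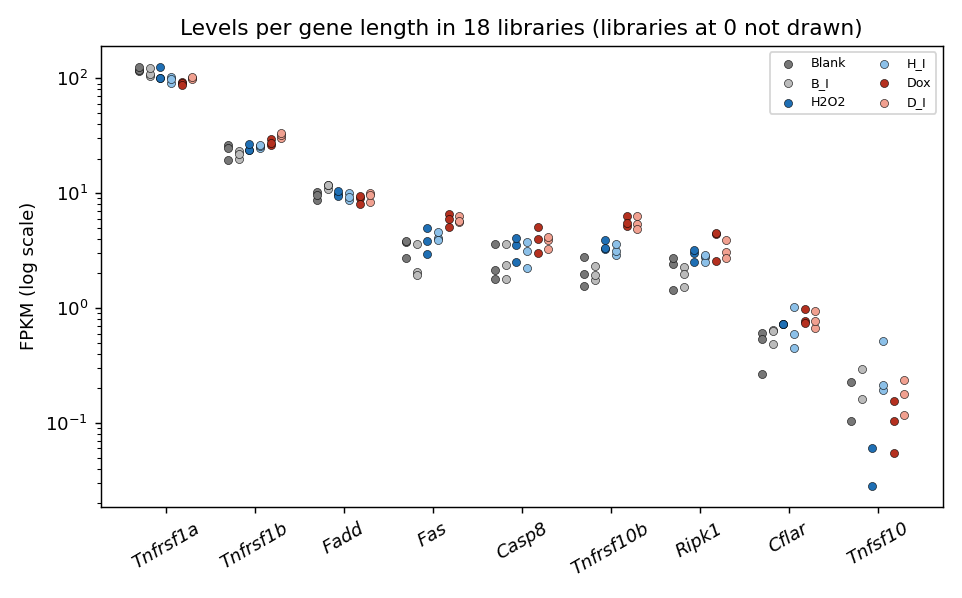
Deposited FPKM of the 9 genes on a log axis, 1 point per library, with genes ordered by their median and coloured by group; libraries with a value of 0 are not drawn. Tnfrsf1a lies between 87.9 and 125.6 FPKM in every library, while Tnfsf10 does not exceed 0.517 FPKM.

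Doxorubicin changed the receptor genes in opposite directions. In Dox against Blank, 3 of the 9 genes passed the test (an edgeR quasi-likelihood adjusted p under 0.05), where 21.7% of all genes tested did (10.3% higher and 11.4% lower). Tnfrsf10b and Ripk1 rose and Tnfrsf1a fell. In the isoliensinine arm, D_I against B_I, 5 of 9 passed, where 18.8% of all genes did (9.41% higher and 9.41% lower). Fas, Tnfrsf10b, Tnfrsf1b and Ripk1 rose and Fadd fell. The 2 comparisons share no library. The median log2 change of the 9 genes was 0.50 in Dox against Blank and 0.39 in D_I against B_I, beside 0.08 over all genes tested in both. At an unadjusted p under 0.05 stood 6 of 9 genes in each (32.8% and 31.0% of all genes). The libraries of the groups did not overlap in 4 of 9 genes for Dox against Blank, beside 36.1% of all genes, and in 6 of 9 for D_I against B_I, beside 38.1%.

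Under hydrogen peroxide none of the 9 passed edgeR's test. In H2O2 against Blank, 0 of 9 genes passed edgeR's quasi-likelihood test (1.43% of all genes did), 1 had an unadjusted p under 0.05 (13.6% of all genes), and DESeq2 called 1, Tnfrsf10b. In H_I against B_I, 0 of 9 passed (1.46% of all genes), 3 had an unadjusted p under 0.05 (17.4% of all genes), and DESeq2 called 1, Fadd. Of 17958 genes fitted, DESeq2 called 425 in H2O2 against Blank and 515 in H_I against B_I. Libraries did not overlap in 2 of 9 genes for H2O2 against Blank and in 4 of 9 for H_I against B_I, beside 13.7% and 23.2% of all genes. The medians of the 9 were 0.08 and 0.09 on the log2 scale, beside -0.02 and 0.05 over all genes. Set directly against H2O2, Dox was higher in 1 of 9 genes, Tnfrsf10b, where 13.1% of all genes passed. In that comparison 2 of 9 had an unadjusted p under 0.05 and 2 did not overlap, beside 26.5% and 32.6% of all genes.

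**Figure D2:**
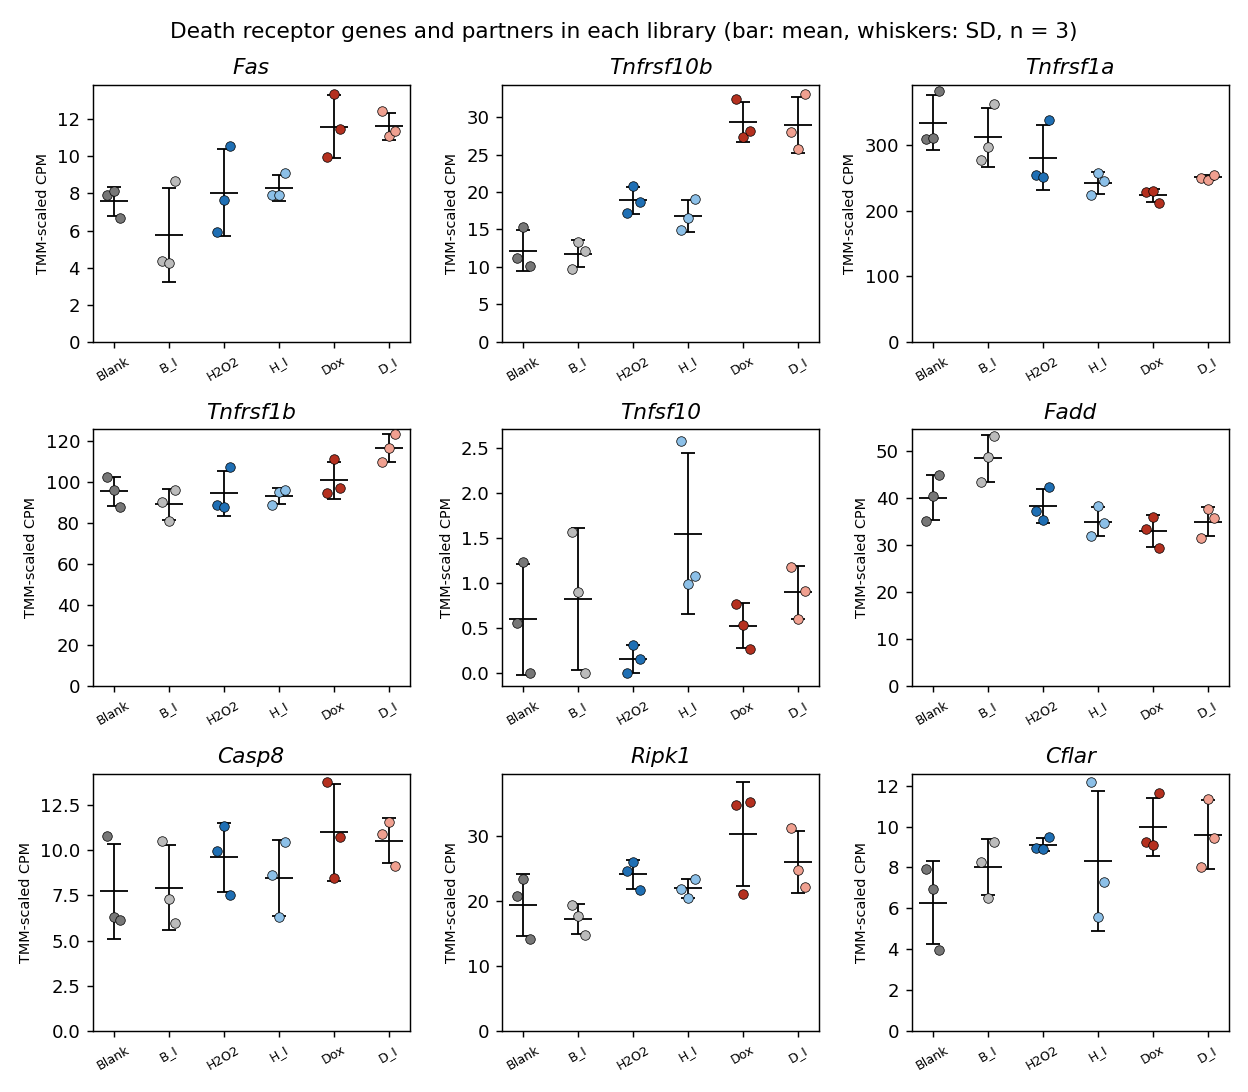
TMM-scaled CPM of each of the 9 genes in each library (points), with the group mean (bar) and SD (whiskers, n = 3) and the groups in the order Blank, B_I, H2O2, H_I, Dox, D_I. All 6 doxorubicin libraries lie above all 6 Blank and B_I libraries for Fas and Tnfrsf10b, and below all 6 for Tnfrsf1a.

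Tnfrsf10b (ENSMUSG00000022074, chromosome 14, 70004921 to 70021860, plus strand, in the coordinates of the deposited table, for which the labels name no build) encodes the mouse TRAIL receptor that carries a death domain. It stood at 11.1, 15.3 and 10.1 CPM in Blank libraries 1, 2 and 4 and at 32.4, 27.4 and 28.2 CPM in Dox libraries 1 to 3. Every Dox library lay far above every Blank library. The means were 12.2 ± 2.79 and 29.4 ± 2.71 CPM (SD, n = 3), a 2.40-fold rise (log2 change 1.27, 95% interval 0.89 to 1.64, adjusted p = 3.40e-05 by edgeR's quasi-likelihood test).

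With isoliensinine the same gene stood at 9.78, 13.4 and 12.2 CPM in B_I and at 27.95, 25.8 and 33.1 CPM in D_I. These groups did not overlap either, and the rise was 2.46-fold (log2 1.30, interval 0.92 to 1.68, edgeR adjusted p = 3.37e-05). Under hydrogen peroxide it stood at 17.2, 20.8 and 18.7 CPM in H2O2 and at 14.9, 16.5 and 19.0 CPM in H_I. All 6 of these libraries lay below every Dox and D_I library, and 5 of 6 lay above every Blank and B_I library, the exception being H_I 1, which was below Blank 2. No H2O2 library overlapped Blank, and no H_I library overlapped B_I. The differences were 0.63 in H2O2 against Blank and 0.51 in H_I against B_I (log2, edgeR adjusted p = 0.0885 and 0.156), so neither passed. DESeq2 put the first past the threshold (adjusted p = 0.0244), as did leaving out Blank 2 (edgeR adjusted p = 0.0422). Tnfrsf10b was also higher in Dox than in H2O2, by 0.63 on the log2 scale (edgeR adjusted p = 0.0214), a call lost without H2O2 1 (0.0792), H2O2 3 (0.0594), Dox 1 (0.101) or Dox 3 (0.0556).

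Fas (ENSMUSG00000024778, chromosome 19, 34268066 to 34305172, plus strand) encodes the receptor for FasL. Its level was 7.91, 8.13 and 6.69 CPM in Blank and 9.95, 13.3 and 11.5 CPM in Dox. All Dox libraries lay above all Blank libraries, yet the log2 difference of 0.61 (interval 0.07 to 1.15) did not pass edgeR's test (adjusted p = 0.102). On the log2(FPKM + 1) scale limma called it (0.64, adjusted p = 0.00912).

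In the isoliensinine arm Fas stood at 4.36, 4.26 and 8.66 CPM in B_I and at 12.5, 11.1 and 11.4 CPM in D_I. B_I 3, one of the libraries that stood apart, was the highest of its group, and the groups did not overlap. Fas rose 2.02-fold in D_I against B_I (log2 1.01, interval 0.46 to 1.56, edgeR adjusted p = 0.00955), a call lost without B_I 2 (0.82, adjusted p = 0.0648). The difference between the doxorubicin responses with and without isoliensinine was 0.40 (log2, 95% interval -0.37 to 1.17, which includes 0), so the larger value in D_I was not shown to differ from that in Dox. In H2O2 the libraries spread from 5.92 to 10.6 CPM and overlapped Blank, and in H_I they held 7.89, 7.89 and 9.11 CPM, with a difference from B_I of 0.53 (edgeR adjusted p = 0.312), or 0.94 without B_I 3.

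Tnfrsf1a (ENSMUSG00000030341, chromosome 6, 125326325 to 125339447, plus strand) was the receptor gene that fell. It stood at 309, 311 and 383 CPM in Blank and at 228, 230.1 and 212 CPM in Dox, without overlap. Its mean dropped from 334.5 ± 42.4 to 223.6 ± 9.82 CPM (SD, n = 3), a log2 change of -0.58 (interval -0.84 to -0.33, edgeR adjusted p = 0.00153). In all 16 alternatives the value stayed negative and past the threshold, between -0.63 and -0.39.

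D_I against B_I, H2O2 against Blank, H_I against B_I and Dox against H2O2 gave negative Tnfrsf1a differences that did not pass edgeR's test. B_I held 277, 297 and 363 CPM and D_I 250.1, 248 and 255 CPM, which did not overlap. The log2 difference of -0.32 had an edgeR adjusted p of 0.0773, and 8 of 16 alternatives, DESeq2 among them (0.0287), put it past the threshold, while limma gave -0.14 on either FPKM scale. In H2O2 the libraries stood at 254, 251 and 338 CPM, of which the highest overlapped Blank (-0.25, edgeR adjusted p = 0.376, and from -0.41 without H2O2 3 to -0.14 without Blank 4). In H_I they stood at 225, 258 and 246 CPM, all below B_I (-0.36, edgeR adjusted p = 0.138). Dox was lower than H2O2 by 0.33 (log2 -0.33, edgeR adjusted p = 0.0801), and DESeq2 (0.0266) and 8 other alternatives called that difference. Without H2O2 3, the highest H2O2 library, it was -0.17 (adjusted p = 0.438), and none of the fits that left out 1 library called it. The Blank 4 and B_I 3 libraries were the highest of their groups for this gene, and without them the Dox value passed in the same direction.

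Tnfrsf1b (ENSMUSG00000028599, chromosome 4, 144940033 to 144973440, minus strand) did not follow Tnfrsf1a. It stood at 102, 96.4 and 88.1 CPM in Blank and at 94.6, 111 and 97.1 CPM in Dox, which overlapped (log2 0.08, interval -0.14 to 0.30, edgeR adjusted p = 0.666). In B_I it held 90.1, 80.9 and 96.3 CPM and in D_I 109.8, 116 and 124 CPM, with every D_I library above every B_I library. That rise was 1.31-fold (log2 0.39, interval 0.17 to 0.61, edgeR adjusted p = 0.0135), and it was lost without B_I 2 (adjusted p = 0.0953) or D_I 3 (0.0655). D_I lay 0.21 above Dox (log2, edgeR unadjusted p = 0.0652), and the difference between the doxorubicin responses with and without isoliensinine was 0.31 (95% interval -0.01 to 0.62, which includes 0).

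For Tnfrsf10b or Tnfrsf1b set against Tnfrsf1a, the balance of transcripts per length differed between groups. The FPKM ratio of Tnfrsf10b to Tnfrsf1a ran from 0.0125 to 0.0235 in Blank, from 0.0263 to 0.0395 in H2O2 and from 0.0566 to 0.0675 in Dox, 3 ranges that do not overlap. In B_I, H_I and D_I it ran from 0.0160 to 0.0214, from 0.0303 to 0.0368 and from 0.0495 to 0.0618. The ratio of Tnfrsf1b to Tnfrsf1a ran from 0.156 to 0.225 in Blank and from 0.281 to 0.329 in Dox. Tnfrsf10b to Fas ran from 0.533 to 0.714 in Blank, from 0.670 to 1.10 in H2O2 and from 0.777 to 1.23 in Dox. Blank and Dox did not overlap, but H2O2 overlapped both. In B_I it ran from 0.532 to 1.19, a range that held those of H_I (0.714 to 0.790) and D_I (0.849 to 1.10). Tnfrsf10b to Tnfrsf1a sets the receptor gene that rose most against the one that fell, so its separation follows from that choice. These ratios restate the levels above and carry no test.

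**Figure D3:**
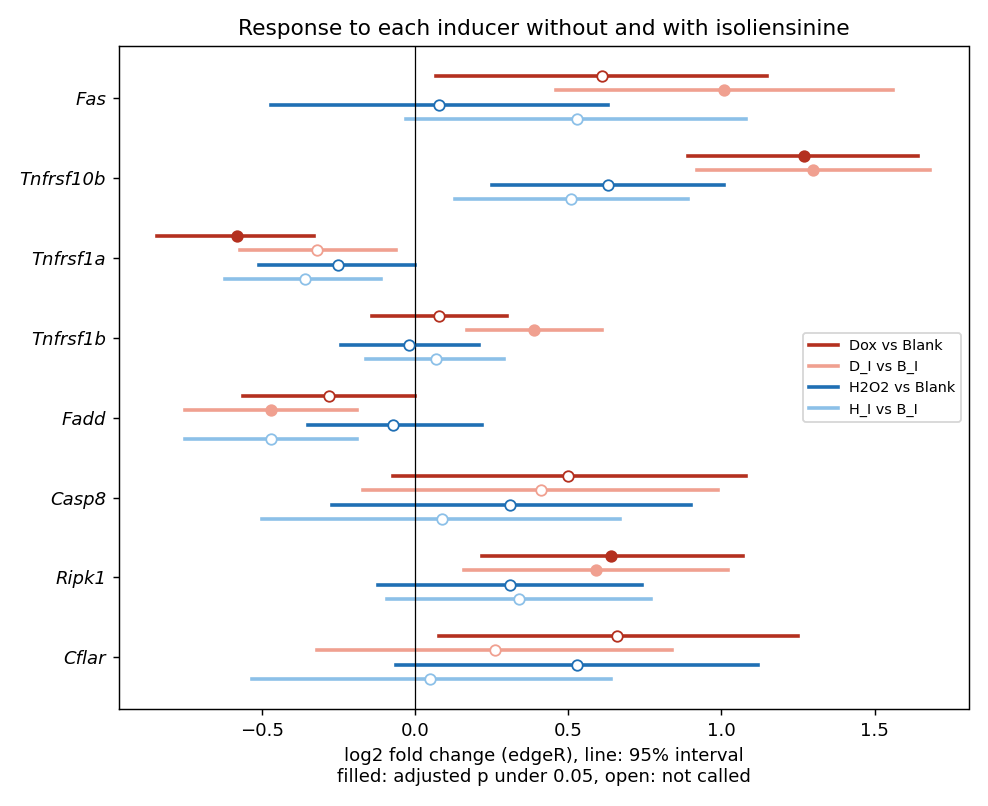
Log2 fold changes by edgeR (points) with 95% intervals (lines) for 8 of the genes in Dox against Blank, D_I against B_I, H2O2 against Blank and H_I against B_I; filled points had an adjusted p under 0.05, and Tnfsf10, with very few counts, is left out. Tnfrsf10b has intervals above 0 in all 4 comparisons, and the Tnfrsf1a interval reaches 0 only in H2O2 against Blank.

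Fadd (ENSMUSG00000031077, chromosome 7, 144131055 to 144136200, minus strand), the adaptor, fell in D_I against B_I. It stood at 43.3, 48.7 and 53.2 CPM in B_I, at 31.5, 37.6 and 35.8 CPM in D_I and at 32.0, 38.2 and 34.6 CPM in H_I. Neither D_I nor H_I overlapped B_I. Fadd fell by 0.47 on the log2 scale in D_I (log2 -0.47, interval -0.75 to -0.19, edgeR adjusted p = 0.0173), a call lost without B_I 3 (0.0567) or D_I 1 (0.103). The value in H_I was also -0.47 but did not pass (edgeR adjusted p = 0.0827; DESeq2 0.0334).

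Without isoliensinine, Fadd was 35.1, 40.4 and 44.8 CPM in Blank and 33.3, 36.05 and 29.3 CPM in Dox, with overlap and a difference of -0.28 (edgeR adjusted p = 0.145). The B_I libraries, which serve as the reference of the isoliensinine arms, lay 0.27 above Blank (log2, edgeR unadjusted p = 0.0556, adjusted p = 0.998). The difference of the doxorubicin responses was -0.18 (interval -0.58 to 0.21, unadjusted p = 0.344). For hydrogen peroxide the corresponding difference was -0.40 (interval -0.80 to -0.01, unadjusted p = 0.0466, adjusted p = 0.807).

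Ripk1 (ENSMUSG00000021408, chromosome 13, 34186346 to 34221130, plus strand) encodes the kinase that TNF receptor 1 recruits. It stood at 20.7, 23.3 and 14.1 CPM in Blank and at 34.7, 21.01 and 35.1 CPM in Dox. Dox 2 lay within the range of Blank, and the lowest Blank value was that of Blank 4. The rise of 0.64 (log2, interval 0.22 to 1.07, edgeR adjusted p = 0.0277) was lost without Blank 4 (0.43, adjusted p = 0.163), Dox 1 (0.126) or Dox 3 (0.140), and in a fit of Blank and Dox alone (0.119). In D_I against B_I the levels were 31.3, 24.7 and 22.04 CPM against 19.3, 17.6 and 14.8 CPM, without overlap. That rise of 0.59 (edgeR adjusted p = 0.0486) was lost in 7 of 16 alternatives, among them the fits without B_I 2 (0.124), B_I 3 (0.195), D_I 1 (0.237) or D_I 2 (0.0875). H2O2 and H_I differed from Blank and B_I by 0.31 and 0.34 (edgeR adjusted p = 0.554 and 0.403), the first being 0.14 without Blank 4. Ripk1 shares 432 bases with Serpinb6a on the opposite strand, and the sources used here do not say whether reads were counted by strand, so part of its counts is uncertain.

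Casp8 and Cflar lie next to each other on chromosome 1, with Cflar (ENSMUSG00000026031) at 58750667 to 58798043 and Casp8 (ENSMUSG00000026029) at 58834533 to 58886662, both on the plus strand, 36489 bases apart with no gene of the table between them. Neither passed the test in any comparison. Casp8 stood at 10.8, 6.29 and 6.16 CPM in Blank and at 13.8, 8.44 and 10.7 CPM in Dox, with overlap (log2 0.50, interval -0.07 to 1.08, edgeR unadjusted p = 0.0839, and from 0.31 without Dox 1 to 0.83 without Blank 1). In D_I against B_I its difference was 0.41 (edgeR adjusted p = 0.354, and from 0.21 without B_I 3 to 0.67 without B_I 1).

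Cflar stood at 7.91, 6.96 and 3.98 CPM in Blank, again with Blank 4 lowest, and at 9.22, 9.12 and 11.6 CPM in Dox. The 3 Dox libraries lay above the 3 Blank libraries, but the difference of 0.66 (interval 0.08 to 1.25) had an edgeR adjusted p of 0.0991. It was 0.40 without Blank 4 and 0.87 without Blank 1, and passed in neither. In H2O2 it held 8.95, 8.93 and 9.47 CPM, also above all of Blank (0.53, edgeR adjusted p = 0.434, and 0.30 without Blank 4). In D_I against B_I the groups overlapped (0.26, edgeR adjusted p = 0.580, and 0.11 without B_I 2). The FPKM ratio of Cflar to Casp8, inhibitor to protease, ran from 0.148 to 0.253 in Blank, from 0.180 to 0.287 in H2O2 and from 0.153 to 0.248 in Dox, ranges that overlap. With isoliensinine it ran from 0.179 to 0.354 in B_I, from 0.159 to 0.322 in H_I and from 0.168 to 0.235 in D_I, which overlap too. The size of this ratio depends on the gene lengths behind FPKM, 12669 bases for Cflar and 2893 for Casp8. Without division by length, mean CPM of Cflar and Casp8 was 6.28 and 7.74 in Blank and 9.99 and 10.99 in Dox.

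Tnfsf10 (ENSMUSG00000039304, chromosome 3, 27371177 to 27396576, plus strand) encodes TRAIL, the ligand of Tnfrsf10b, and was hardly detected. Its raw counts were 9, 20 and 0 in Blank, 27, 14 and 0 in B_I, 0, 5 and 2 in H2O2, 35, 16 and 16 in H_I, 19, 11 and 6 in Dox and 19, 10 and 16 in D_I. A count of 0 allows up to 3 counts, which is 0.225 CPM in Blank 4, 0.193 in B_I 3 and 0.212 in H2O2 1 (counting error only). No H_I library overlapped H2O2, and the fitted difference was 3.23 (log2, interval 0.65 to 5.80), with an unadjusted edgeR p of 0.0164 and an adjusted p of 0.582. It passed in none of the 13 alternatives that could give a value.

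Markers of colon epithelium moved with this gene. All 11 were detected in every library, and all 11 had an unadjusted p under 0.05 in H_I against H2O2 (median log2 change 2.21, 0 called). Their summed level ran from 65.7 to 214 CPM in the Blank group, from 71.7 to 304 CPM in B_I, 50.6 to 193 in H2O2, 257 to 848 in H_I, 105 to 285 in Dox and 172 to 226 in D_I. H_I 1 was the highest library for both Tnfsf10 and the markers, and the 3 libraries with 0 counts of Tnfsf10 had marker sums of 65.0 to 71.7 CPM. The match was not complete. H2O2 2 had the lowest marker sum (50.6 CPM) with 5 counts of Tnfsf10, and H2O2 3 had 193 CPM with 2 counts. Over the 18 libraries the Pearson r of Tnfsf10 with the marker sum was 0.85, and 0.67 without H_I 1 and H_I 3. Liver markers were highest in H_I 1 too, at 390.1 CPM against 139 or less in the H2O2 libraries. The part of these transcripts in the Tnfsf10 values was not tested. NK and T lymphocyte markers summed to 6.64 CPM or less in every library, with Ncr1, a defining NK receptor gene, at 0 in 16 of 18.

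**Figure D4:**
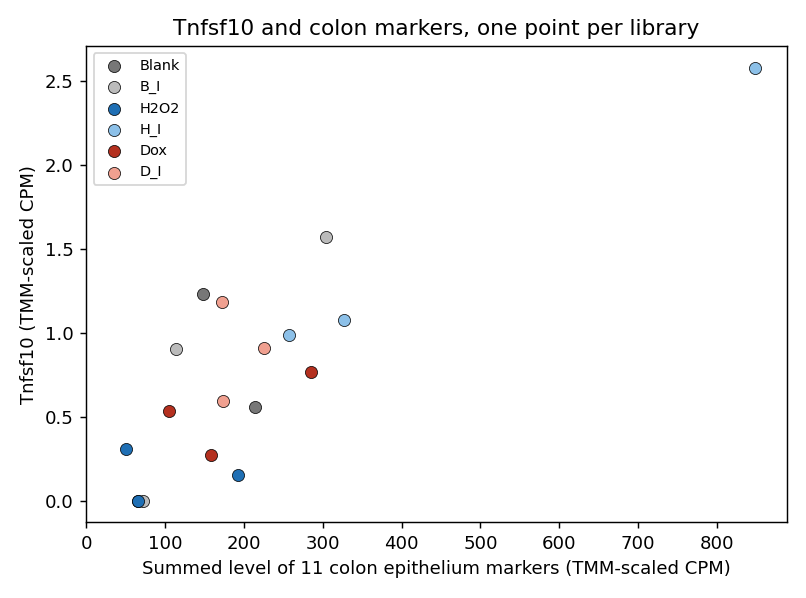
Tnfsf10 (vertical axis, TMM-scaled CPM) against the summed TMM-scaled CPM of 11 colon epithelium markers (horizontal axis), 1 point per library, coloured by group. The H_I 1 library, at 848 and 2.58 CPM, lies far from the other 17, and the points at 0 on the vertical axis are Blank 4, B_I 3 and H2O2 1.

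Isoliensinine by itself was compared with each matching group. In B_I against Blank, D_I against Dox and H_I against H2O2, 0 of the 9 genes passed edgeR's quasi-likelihood test, as did 0% of all genes tested in each, and DESeq2 called none of the 9 either. Over all genes DESeq2 called 1, 25 and 70, and an edgeR fit of D_I and Dox alone called 263 genes (109 higher and 154 lower), with 0 of the 9 among them. The counts at an unadjusted p under 0.05 were 0, 0 and 1 of 9, beside 4.79%, 4.16% and 6.84% of all genes, and the 1 was Tnfsf10. Libraries did not overlap in 0, 1 and 1 of 9 genes, beside 7.29%, 18.8% and 12.1% of all genes. Without Tnfsf10 the fitted log2 changes of the other 8 lay between -0.40 and 0.34 in B_I against Blank, -0.22 and 0.21 in D_I against Dox, and -0.21 and 0.05 in H_I against H2O2. Their 95% intervals reached from -0.95 to 0.93, from -0.64 to 0.54 and from -0.77 to 0.60. The intervals differed between genes: that of Tnfrsf1b in B_I against Blank was -0.33 to 0.12. Fas had the lowest value in B_I (-0.40, unadjusted p = 0.151, and from -0.80 without B_I 3 to -0.23 without B_I 1 or B_I 2). Ripk1 had the lowest in D_I (-0.22, unadjusted p = 0.287, and from -0.43 to -0.10 on leaving out single libraries). Tnfrsf1a lay higher in all 3 D_I libraries than in all 3 Dox libraries, by 0.17 (unadjusted p = 0.189). As interaction terms, the differences between isoliensinine effects with and without each inducer were called for 0 of 9 genes by edgeR (0% of all genes, with 0 and 1 of 9 at an unadjusted p under 0.05 for doxorubicin and hydrogen peroxide, beside 3.90% and 6.08% of all genes).

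The rest of the pathway was followed in 59 genes from 5 lists, of which 53 could be tested; Fasl, Lta, Ltb, Tnfsf14, Tnfsf15 and Tnfrsf11b did not pass the filter. In Dox against Blank 13 of these rose and 6 fell (median 0.13), where 10.3% and 11.4% of all genes did (median 0.08). In D_I against B_I 10 rose and 4 fell (0.14), where 9.41% of all genes rose and 9.41% fell (0.08). In Dox against H2O2 5 were higher and 4 lower (0.09), where 13.1% of all genes passed. In H2O2 against Blank 1 rose and in H_I against B_I 2 rose, where 1.43% and 1.46% of all genes passed. In B_I against Blank, D_I against Dox and H_I against H2O2 0 passed in the edgeR fit of all 18 libraries or with DESeq2, and 2, 3 and 3 had an unadjusted p under 0.05, beside 4.79%, 4.16% and 6.84% of all genes. The edgeR fit of D_I and Dox alone called 1 higher and 1 lower. DESeq2 gave 3 higher in H2O2 against Blank, 4 higher in H_I against B_I and 10 higher with 9 lower in D_I against B_I. Of all 17958 genes fitted, it gave 185 higher in H2O2 against Blank and 194 higher in H_I against B_I. In D_I against B_I it gave 1229 higher and 1652 lower. By list, Dox against Blank called 1 lower of 2 ligands, 3 higher and 1 lower of 10 other receptors and decoys, 6 higher and 2 lower of 25 genes of complex I and its ubiquitin control, 2 higher of 4 necroptosis genes, and 2 higher and 2 lower of 12 caspases and mitochondrial relay genes. The count in Dox against Blank fell to 8 higher and 3 lower without Dox 3, to 9 and 5 without Blank 1 and to 8 and 6 in a fit of the pair of groups alone. Over all genes the counts in those fits were 855 and 1021, 1103 and 1379, and 865 and 1202.

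Tnfrsf23 and Tnfrsf22, which encode decoy receptors for TRAIL, moved in the same direction as Tnfrsf10b. Tnfrsf23 stood at 15.8, 13.1 and 14.6 CPM in Blank, 30.03, 27.5 and 41.8 CPM in H2O2 and 50.5, 51.0 and 50.5 CPM in Dox, 3 groups without overlap. It rose by 1.81 in Dox (edgeR adjusted p = 1.02e-06) and by 1.19 in H2O2 (0.00195), the latter lost in a fit of H2O2 and Blank alone (0.150). It rose by 1.41 in D_I against B_I (edgeR adjusted p = 2.55e-05). In H_I against B_I it rose by 0.79 (edgeR adjusted p = 0.0444), a call lost without B_I 2, B_I 3, H_I 1 or H_I 2 (0.134 to 0.178). Its neighbour in sequence, Tnfrsf22, rose by 1.04 in Dox and by 0.86 in D_I (edgeR adjusted p = 0.000747 and 0.00489). In H2O2 against Blank Tnfrsf22 was not called (log2 0.80, edgeR adjusted p = 0.0519). Tnfrsf22 and Tnfrsf23 are close copies, so reads may have been split between them. Tnfrsf23 was higher in Dox than in H2O2 by 0.62 (edgeR adjusted p = 0.0319), lost on leaving out any library of the comparison except H2O2 3 (0.0655 to 0.113).

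Other receptors and ligands differed too. Eda2r, a receptor for ectodysplasin A2, rose by 1.66 in Dox (edgeR adjusted p = 0.00925). That call was lost without Dox 3 (0.0655) and in a fit of Dox and Blank alone (0.0732). On leaving out single libraries its value ran from 1.15 to 2.09, and it stood at 5.04, 4.25 and 0.601 CPM in Blank 1, 2 and 4. In D_I against B_I Eda2r was not called (log2 0.78, edgeR adjusted p = 0.233). Tnfrsf12a, the receptor for TWEAK, rose by 1.14 in D_I (edgeR adjusted p = 0.0201), lost without B_I 1, B_I 2, D_I 2 or D_I 3 (0.0530 to 0.0773). Its difference in Dox against Blank was not called (log2 0.89, edgeR adjusted p = 0.0566). Tnfsf12, the gene of TWEAK itself, fell by 1.04 in Dox against Blank (log2 -1.04, edgeR adjusted p = 1.97e-05) and was lower in Dox than in H2O2 (log2 -0.63, adjusted p = 0.00522). In D_I against B_I the Tnfsf12 change was -0.55 (log2, edgeR adjusted p = 0.00897). Of the ligands, Fasl was listed at 0 in 16 of 18 libraries, and Tnf averaged 0.871 CPM in H_I and 0.175 CPM or less in every other group, with all 3 H_I libraries above the others. Tnf counts in H_I were only 18, 11 and 9, and B_I 1 also held 9 (0.524 CPM). H_I 1, the highest library for Tnf, was also the highest for the colon and liver markers. The part of those transcripts in the Tnf values was not tested. In H_I against H2O2 Tnf was not called (log2 2.75, edgeR unadjusted p = 0.0888, adjusted p = 0.770). Neither the Fasl nor the Tnf values are a test of ligand protein.

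Zbp1, a nucleic acid sensor that can start necroptosis, had the largest change of the named pathway genes in Dox against Blank. It stood at 2.62, 2.59 and 3.53 CPM in Blank and at 14.1, 11.7 and 14.0 CPM in Dox, without overlap. It rose by 2.19 in Dox, by 2.50 in D_I against B_I and by 1.84 in Dox against H2O2 (edgeR adjusted p = 2.34e-05, 9.62e-06 and 0.000330). In H_I against B_I it rose by 1.40 (edgeR adjusted p = 0.0271), lost without B_I 3 or any 1 of the H_I libraries (0.0526 to 0.143). Mlkl, the effector of necroptosis, was chosen after its values were seen: it rose by 0.84 in Dox (edgeR adjusted p = 7.74e-05) and by 0.43 in D_I (0.0233), the latter lost without B_I 2, B_I 3, D_I 1 or D_I 2 (0.0789 to 0.165).

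Among regulators of the signalling complexes, Tnfaip3, which encodes the ubiquitin-editing enzyme A20, rose by 1.18 in Dox against Blank (edgeR adjusted p = 0.00376). It was higher in Dox than in H2O2 by 0.92 (0.0308), lost on leaving out any 1 of the 6 libraries (0.0516 to 0.147). Map3k7, which encodes the kinase TAK1, rose by 0.85 in D_I (edgeR adjusted p = 0.0201), lost without B_I 2, B_I 3, D_I 1 or D_I 2 (0.0562 to 0.116). In Dox against Blank Map3k7 rose by 0.76 (edgeR adjusted p = 0.0316), a call for which no alternatives are given. It stood at 25.6, 21.1 and 11.3 CPM in Blank 1, 2 and 4 and at 33.0, 26.3 and 39.4 CPM in Dox. On the mitochondrial side, Htra2, a protease that counters inhibitors of apoptosis, fell in D_I (log2 -0.77, edgeR adjusted p = 0.00437) and was lower in Dox than in H2O2 (-0.58, 0.0377), the latter lost without H2O2 3 or any 1 of the Dox libraries (0.0714 to 0.307). Against Blank, Htra2 was lower in Dox as well (log2 -0.56, edgeR adjusted p = 0.0302). Bak1, which encodes a pore-forming protein of the BCL-2 family, was lower in Dox than in H2O2 (-0.72, edgeR adjusted p = 0.000402). Bak1 was lower in Dox than in Blank too (-0.83, edgeR adjusted p = 3.44e-05). For Htra2 and Bak1 in Dox against Blank no alternatives are given either.

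**Figure D5:**
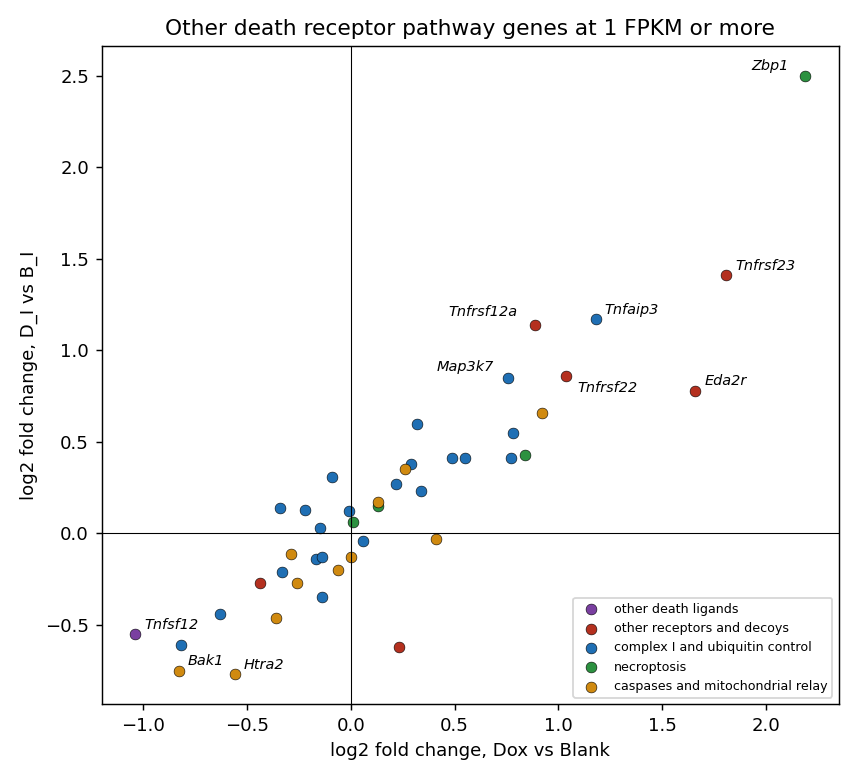
Log2 fold changes of 44 other pathway genes that reached a mean of 1 FPKM in a group of Dox against Blank, in Dox against Blank (horizontal) and D_I against B_I (vertical, no shared library), coloured by list. Zbp1 lies at 2.19 and 2.50 and Tnfrsf23 at 1.81 and 1.41, in the upper right, and Tnfsf12 at the lower left.

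Across the 18 libraries, the genes whose scaled log2 CPM ran most like Tnfrsf10b were Bub1b, Ip6k2 and Syt11 (Pearson r = 0.94, 0.93 and 0.93). For Tnfrsf1a they were Aph1a, Pex6 and Pik3r2 (0.98, 0.97 and 0.97), for Fas Amigo1, Ier5 and Ank3 (0.92, 0.90 and 0.90), and for Tnfrsf1b Tmx2, Fer1l5 and Nuak2 (0.85, 0.84 and 0.82). For Ripk1 they were Ube2h, Cobll1 and Blm (0.92, 0.91 and 0.91), and for Fadd Evl, Crlf2 and Mtfr1l (0.91, 0.90 and 0.90). Among the members themselves, the largest absolute values were for Fadd and Ripk1 (r = -0.82), Tnfrsf1a and Fadd (0.81) and Fas and Tnfrsf1b (0.79). Tnfrsf10b and Fas had r = 0.76, Tnfrsf1a and Ripk1 r = -0.76, and Tnfrsf10b and Tnfrsf1a r = -0.69. These are descriptions over n = 18 libraries that share groups, depth and scaling, and no p is given.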

How the data were processed

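RNA of MOVAS cells was sequenced in 18 libraries, 3 in each of 6 groups taken from the sample titles. The deposited table holds a read count per gene and library, not normalized, per the file headers. It also holds FPKM values made by the authors, all of which (100%, tolerance 1e-06) equal the count scaled by gene length and library total. The submitters' processing notes list HISAT2 2.1.0, HTSeq 0.9.1 and fastp 0.22.0 and give no role for any. No label or header names a genome build. No column belonged to another series, and the 51 genes without a symbol held 0.0187% of counts and were kept.

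Counts were fitted in R 4.3.3 with edgeR 4.0.16: filterByExpr, trimmed-mean (TMM) scaling, robust quasi-likelihood dispersions, a mean per group over all 18 libraries, and Benjamini-Hochberg adjustment over 13375 genes, called under 0.05. Intervals (95%) come from the SE, the absolute log2 change over the root of F. The scripts were tested on simulated data. No library repeated another of its own group (chi-square per degree of freedom at least 5.69 between replicates). Libraries of different groups were not compared in this way.

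The 9 genes and all gene lists were chosen with earlier results of these data known. Named pathway genes were up to 6 called per comparison with the largest change and at least 1 FPKM in the higher group, beside Cdkn1a and, for each member called, the 3 genes of highest correlation. Alternatives were DESeq2 1.42.0, limma 3.58.1 on log2(FPKM + 1) and log2(FPKM + 0.1), other scalings, filters and fits, a replicate block, and leaving out libraries.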

Additional observations from a re-analysis of the deposited data

How the results depend on the processing

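For 62 gene values of the text, 983 alternative values were computed: 885 kept their direction and side of the threshold, 67 lost the call, 28 gained it and 3 changed sign, all 3 of them Tnfrsf1b in Dox against Blank, which was never called (-0.01 with the replicate block, -0.00 without Blank 4 and B_I 3, and from -0.00 without Blank 4 to 0.14 without Blank 1 when single libraries were left out). Of the 9 genes, Dox against Blank called 2 in a fit of the compared groups alone, 2 without Blank 4 and B_I 3 (both without Ripk1) and 4 with limma on either FPKM scale (Fas added). D_I against B_I called 6 with DESeq2, unfiltered, with the 5 CPM filter and in the compared groups alone (Tnfrsf1a added), 4 without Blank 4 and B_I 3 (Ripk1 lost), and 5 with either other scaling, with Tnfrsf1a in place of Ripk1. H2O2 against Blank gave 1 with DESeq2 and 1 with limma on either FPKM scale. H_I against B_I gave 1 with DESeq2. Dox against H2O2 gave 2 with DESeq2, with its size factors in edgeR, after upper-quartile scaling, unfiltered, with at least 5 CPM required in 3 libraries, with limma on log2(FPKM + 0.1) and without Blank 4 and B_I 3, the second gene being Tnfrsf1a, and 3 with limma on log2(FPKM + 1). Leaving out single libraries gave 2 to 3 in Dox against Blank, 0 to 1 in H2O2 against Blank, 2 to 6 in D_I against B_I, 0 to 1 in H_I against B_I and 0 to 1 in Dox against H2O2. The 2 in D_I against B_I came without B_I 2 (Tnfrsf10b and Fadd), and the 3 without B_I 3 or without D_I 1 were Fas, Tnfrsf10b and Tnfrsf1b. The cause of these moves was not tested. Tnfsf10 and Cflar stayed under 1 FPKM and were not in the limma fits. On log2(FPKM + 0.1) the median of all genes in Dox against Blank was 0.23 against 0.08, with 2550 higher and 1048 lower calls against 1372 and 1524. DESeq2 size factors gave 674 higher and 1036 lower in Dox against H2O2 against 900 and 846. The main fit called 2896 of 13375 genes in Dox against Blank. There limma on log2(FPKM + 1) called 3675 of 9763 and the compared groups alone 2067 of 12394. DESeq2 called 425 genes in H2O2 against Blank and 515 in H_I against B_I, where the main fit called 191 and 195. It called 2881 in D_I against B_I (main fit 2518) and 2173 in Dox against H2O2 (1746).

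Titles share replicate numbers, but same-numbered libraries deviated together only weakly (correlations from -0.19 to 0.28, with every pair over 0.1 in 0 of 8 comparisons), so the numbers were not read as pairs. With the replicate block, 2 of the 9 genes were called in H_I against B_I (Tnfrsf1a and Fadd) and 2 in Dox against H2O2, 6 were called in D_I against B_I (Tnfrsf1a added), and Dox against Blank kept 2, with Ripk1 lost (adjusted p = 0.135). Over all 13375 genes the block gave 616 calls in H_I against B_I (195 without it) and 2317 in Dox against H2O2 (1746). It gave 3120 in D_I against B_I (2518) and 2428 in Dox against Blank (2896). Blank 4 has no partner number and adds nothing to that fit. Few counts limit Tnfsf10 in particular.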

Other observations

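Lists of target genes that share no member with the 9 genes were followed beside them. Of 9 p53 target genes, 8 were higher in Dox against Blank and 8 in D_I against B_I (median log2 change 1.58 and 1.14), 4 in H2O2 against Blank (0.52) and 2 in H_I against B_I (0.48). Of 8 interferon-response genes, 5 were higher in Dox against Blank and 5 in D_I against B_I (1.27 and 0.97), and 0 in H2O2 against Blank by edgeR (3 at an unadjusted p under 0.05). Of 8 NF-kB target genes, which include Tnfaip3, Birc3 and Traf1 of the pathway lists, 2 were higher and 1 lower in Dox against Blank (0.19) and 2 higher in D_I against B_I (0.18). These are counts of calls by edgeR's quasi-likelihood test, beside 21.7% of all genes in Dox against Blank and 18.8% in D_I against B_I. For hydrogen peroxide, 1.43% of all genes were called in H2O2 against Blank and 1.46% in H_I against B_I. In H2O2 against Blank 13.6% of all genes had an unadjusted p under 0.05. Of the marker lists, macrophage markers had 1 of 8 tested genes higher in Dox against Blank and endothelial markers 0 of 8 by edgeR (0 at an unadjusted p under 0.05), and their summed levels ran from 35.6 to 77.5 and from 13.4 to 25.6 CPM over the 18 libraries.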
